A study of Mus musculus with 8 samples.

Results

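The genes described here encode 6 proteins of the presynaptic release machinery: Stx1a, Rims1, Cplx1, Cplx3, Sept5 and Cacna1a. They were found by symbol among the 2372 genes of the authors' deposited table, after each row had been matched to a mouse gene by chromosome, start, end and strand, and all 6 matched exactly. The genes had been picked because the table lists them, so they were chosen on the comparison described here. Their fold changes and calls are therefore a description and are not tested again.

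The table comes from RNA sequencing of the mPFC, the medial prefrontal cortex, from 8 male adult mice on a C57Bl/6J background, which are labelled naive. The 4 conditional knockout mice, named CaKO, carried CamK2A-Cre and floxed alleles of Gpr158 (CamK2A-Cre;Gpr158flox/flox). The CamK2A promoter drives the recombinase mainly in forebrain excitatory neurons, while the RNA came from whole tissue. The 4 controls were littermates with the same floxed alleles and no Cre (Gpr158flox/flox). The series set out to find what lies behind a shortage of glutamate vesicles in these mice, which lack an orphan receptor, GPR158, in excitatory neurons. Gpr158 itself (chromosome 2, 21367542 to 21830547, GRCm38) overlaps 0 rows of the table. Every row has an unadjusted p below 0.05 (largest 0.0499), so Gpr158 either did not reach that threshold or was not tested. Loss of the target was therefore not seen here, and the labels could not be checked by it.

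At a nerve terminal, a docked synaptic vesicle fuses when the SNARE proteins syntaxin-1 and SNAP-25 on the plasma membrane zip together with synaptobrevin on the vesicle. RIM scaffolds of the active zone hold vesicles close to P/Q-type and N-type calcium channels, and the calcium that enters is read by synaptotagmins. Complexins bind the partly assembled SNARE complex, holding it back and readying it for fast release, and septin filaments near the vesicles contact syntaxin.

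The values behind each gene are normalised counts, that is, read counts divided by a factor for each library, and they were available for the 4 CaKO libraries. No control library's own values were used. The comparison of genotypes rests on the authors' log2 fold change (CaKO over control), p and adjusted p. The level in controls is given only as the level implied by the CaKO mean and that fold change. It carries no spread of the control libraries, so CaKO values below it are not separate support for a fall. The CaKO libraries held 2832931 to 3183638 reads over the genes of the table, with the lowest total in replicate 3. These totals cover only genes with an unadjusted p below 0.05, so they do not rank the libraries by depth. By the factors, 1 read had a value of 1.005, 1.002, 0.994 and 1.042 in replicates 1 to 4, so the largest factor was that of replicate 3. Replicate 3 stood apart in its values. Of 958 lower genes with a mean of at least 100, 63.0% had their lowest value in that library. Over all 1810 genes of the table with such a mean, the share was 37.1%. The listing of genes as lower itself used these CaKO values, so the larger share among lower genes is partly tied to that selection. Results that rest on replicate 3 are given with and without it.

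All 6 release genes were lower in CaKO, and 3 of them passed an adjusted p below 0.05. Sept5 fell to 46.5% of the control level, Stx1a to 72.8% and Rims1 to 78.4%. Cplx1, Cplx3 and Cacna1a stood at 78.3%, 74.1% and 85.3% of control and did not pass. Of the 12938 genes in the authors' adjustment, 3.24% passed in either direction and 1.97% passed as lower. The genes were picked for being listed, so nothing is read from their own share. The RNA came from bulk tissue, in which fewer cells of a type and less RNA per cell cannot be told apart.

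**Figure D1:**
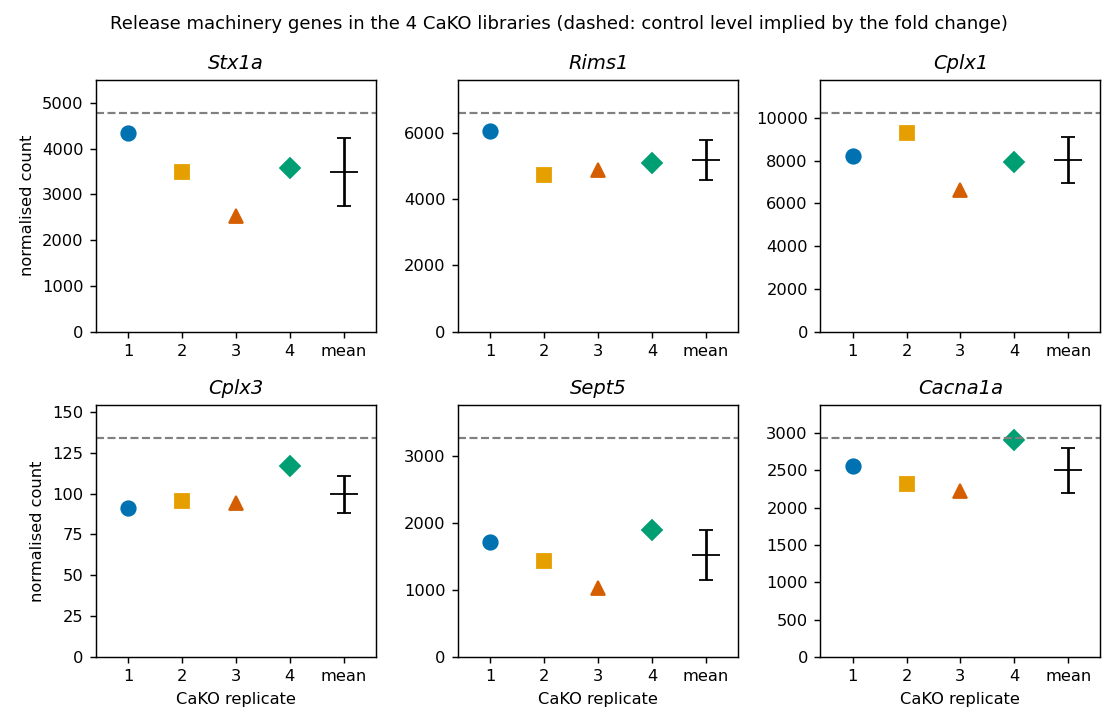
Normalised counts (y axis, from 0) of the 6 release genes in CaKO replicates 1 to 4, with the mean and SD (n = 4) at the right of each panel. The dashed line is the control level implied by the authors' fold change. Every point lies below its dashed line, but the line carries no spread of the controls and the genes were picked from the same comparison. Relative to that line Sept5 is lowest, with its highest library at 58.0%, and Cacna1a in replicate 4 lies at 98.9% of it.

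Stx1a encodes syntaxin-1A, the plasma-membrane SNARE (chromosome 5, 135023482 to 135051100, plus strand, GRCm38). Its normalised counts were 4350, 3496, 2529 and 3576 in CaKO replicates 1 to 4, a mean of 3488 ± 746 (SD, n = 4). Replicate 3 was the low library and replicate 1 the high one, and all 4 were below the implied control level of 4788. Its fall in the authors' deposited table was a log2 fold change of -0.46 (adjusted p = 0.0479), close to the threshold. The standard error implied by that p is 0.14, which puts CaKO at 72.8% of control with a 95% interval from 59.9% to 88.6%. Since the table lists only genes with an unadjusted p below 0.05, an interval obtained in this way leaves out no change for every listed gene. Without replicate 3 the log2 fold change was -0.33 and the call was lost, under an error widened for 3 libraries with the spread not estimated again. The call was also lost without replicate 2 or 4, at fold changes of -0.46 and -0.47, where the wider error of 3 libraries accounts for the loss.

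Rims1 encodes RIM1, the active zone scaffold that tethers vesicles and calcium channels (chromosome 1, 22286251 to 22805994, minus strand). Its normalised counts were 6073, 4728, 4875 and 5081, a mean of 5189 ± 606 (SD, n = 4). Replicate 1 was the high library, the other three lay close together, and all were below the implied control level of 6615. Rims1 fell in the authors' deposited table by a log2 fold change of -0.35 (adjusted p = 0.0235), which is 78.4% of control (95% interval 68.5% to 89.8%). The call was lost without replicate 2 (-0.31) or replicate 3 (-0.32) and was kept without replicate 1 (-0.43) or 4 (-0.34).

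Cplx1 encodes complexin-1, a main complexin of forebrain synapses together with complexin-2 (chromosome 5, 108518554 to 108550024, minus strand). Its normalised counts were 8224, 9297, 6640 and 7922, a mean of 8021 ± 1094 (SD, n = 4). Replicate 2 was high and replicate 3 low, and all were below the implied control level of 10246. In the authors' deposited table its log2 fold change was -0.35 (adjusted p = 0.0642), with a 95% interval from -0.58 to -0.13. This is almost the fold change of Rims1, with a wider error, and it did not pass. Without replicate 2 its log2 fold change was -0.43 and would have passed, and without replicate 3 it was -0.27.

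Cplx3 encodes complexin-3, best known from retinal ribbon synapses and, in cortex, from the deepest layer and some interneurons (chromosome 9, 57599992 to 57606281, minus strand). It was the scarcest of the 6 genes, with normalised counts of 91.5, 95.2, 94.4 and 116.7, a mean of 99.4 ± 11.6 (SD, n = 4). Replicate 4 stood above the other three, which lay within a narrow band, and all were below the implied control level of 134.1. In the authors' deposited table its log2 fold change was -0.43 (adjusted p = 0.185), with a 95% interval from -0.79 to -0.08. The point estimate is close to that of Stx1a, but the interval nearly reaches no change. Among 5 fixed markers of layer 6b and the subplate, only Lpar1 was listed, with a log2 fold change of -0.41 (adjusted p = 0.0636) in the authors' deposited table. Its summed level was 328.6 to 377.9 normalised counts over the CaKO libraries, and its part in the value of Cplx3 was not tested.

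Cacna1a encodes the pore-forming subunit of the P/Q-type calcium channel (chromosome 8, 84388440 to 84640246, plus strand). Its normalised counts were 2566, 2318, 2230 and 2904, a mean of 2505 ± 302 (SD, n = 4). Replicate 4 was the high library and nearly reached the implied control level of 2938. In the authors' deposited table its log2 fold change was -0.23 (p = 0.0376, adjusted p = 0.275), the smallest of the 6 genes, with a 95% interval from -0.45 to -0.01. Leaving out replicate 3 gave -0.18 and leaving out replicate 4 gave -0.31. An antisense gene, Gm16183, covers 3.81% of its exon sequence on the opposite strand, and the sources used here do not say whether counting used strand.

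Sept5 encodes septin-5, a filament-forming GTPase that associates with synaptic vesicles and syntaxin (chromosome 16, 18620502 to 18629954, minus strand). Its normalised counts were 1713, 1433, 1030 and 1893, a mean of 1517 ± 376 (SD, n = 4). The spread was the widest of the 6 genes, with replicate 4 at 1.84 times replicate 3, yet the highest library reached only 58.0% of the implied control level of 3263. Sept5 fell in the authors' deposited table by a log2 fold change of -1.10 (adjusted p = 2.46e-06), to 46.5% of control (95% interval 36.2% to 59.7%). Of the 287 lower genes with a CaKO mean of at least 1000 normalised counts, 0 had a more negative fold change in the authors' deposited table. A gene that fell further can drop below this limit by its own fall. Ranked by the authors' unadjusted p, Sept5 was number 10 in the table. Its call was kept with each CaKO library left out, at log2 fold changes from -1.23 to -0.96.

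**Figure D2:**
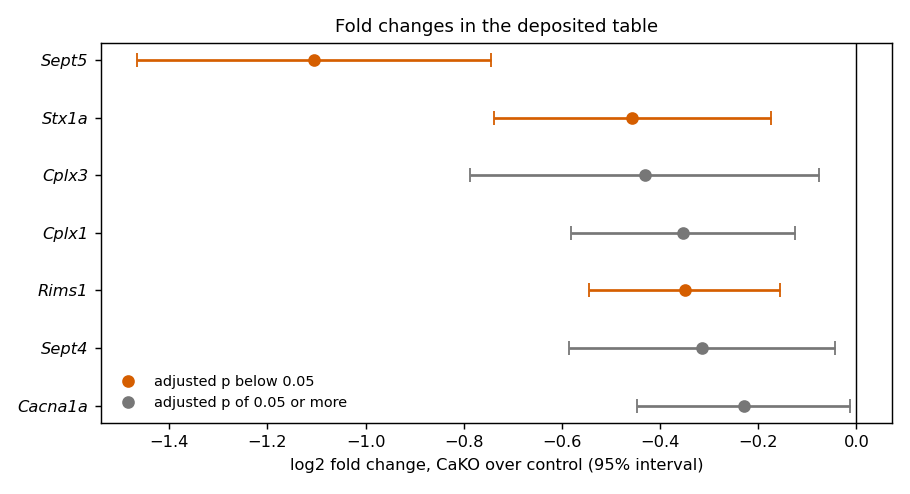
Log2 fold change of CaKO over control (x axis) from the authors' deposited table for the 6 release genes and Sept4, with 95% intervals from the standard error that each p implies. Orange points have an adjusted p below 0.05 and grey points do not. The interval of Sept5 ends at -0.74, and those of Cacna1a and Sept4 end near 0, at -0.01 and -0.04. Only genes with an unadjusted p below 0.05 are listed, so each interval leaves out 0 by construction. That is not separate support for a fall.

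The Sept5 value needs its locus in view, because its exons are shared with other genes on the same strand. Gp1bb, which encodes the beta chain of platelet glycoprotein Ib, lies over the end of Sept5 (18620317 to 18622403) and covers 48.6% of its 3915 exon bases. Gm49601 (18620466 to 18626427) covers 56.3%. Its protein-coding model uses the body of Sept5 and then joins the last exon of Gp1bb. Together they leave 638 exon bases, 16.3% of the total, to Sept5 alone. These lie in 4 stretches, of which the longest, 393 bases, is the start of the last Sept5 exon (18622404 to 18622796). The models part at a splice junction after exon 10, shown here because reads across it separate the Sept5 model Sept5-205 from Gm49601-202. The 24 bases in lower case are the end of the shared exon, which closes at base 18622915, and the 24 in capitals open the last exon of each model, at base 18622796 for Sept5-205 and 18621332 for Gm49601-202, read 5′ to 3′ on the minus strand of GRCm38 (GENCODE M21):
Sept5-205: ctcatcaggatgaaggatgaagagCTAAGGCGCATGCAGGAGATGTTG
Gm49601-202: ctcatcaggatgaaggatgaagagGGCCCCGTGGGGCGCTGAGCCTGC
The last exon adds 54 coding bases to Sept5-205, for a protein of 378 residues, and 15 to Gm49601-202, for 365. The table gives only gene totals, so reads over this junction were not seen. Neither Gp1bb nor Gm49601 is among its listed genes. The sources used here do not give the rule for reads in shared exons, nor whether the annotation that was counted held Gm49601. The other 5 release genes share 0 exon bases with any gene on their own strand.

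**Figure D3:**
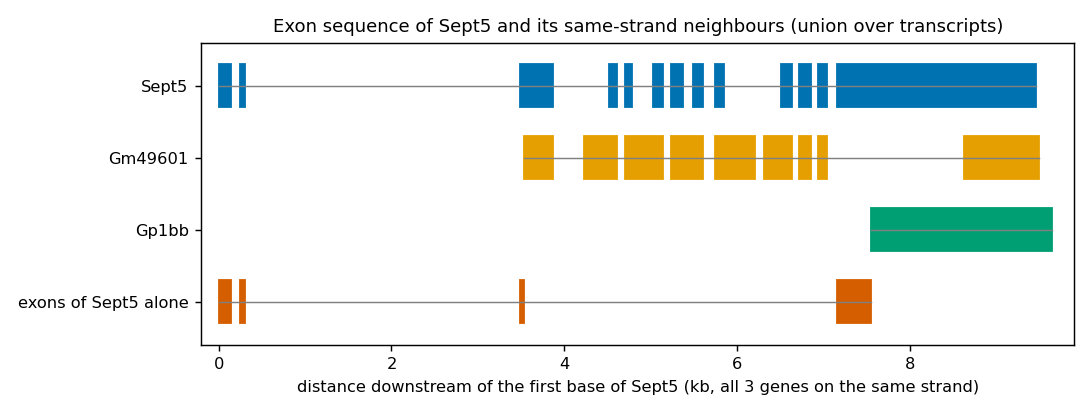
Exon sequence of Sept5, Gm49601 and Gp1bb, drawn to scale as distance in kb downstream of the first base of Sept5 (x axis), with all transcripts of a gene merged. The lowest row shows the 638 bases that belong to Sept5 alone, most of them in the first exons and at the start of the last exon.

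The 4 release genes with the most GC-rich transcripts were those in which replicate 3 was the lowest library. Replicate 3 was also lowest in 63.0% of the 958 lower genes with a mean of at least 100, so this is common among lower genes. The longest transcript had a GC content of 61.2% for Sept5, 58.4% for Cacna1a, 57.9% for Stx1a and 56.0% for Cplx1. All 4 lie above 53.5%, where the highest of 3 equal groups begins when 1797 listed genes with a mean of at least 100 are ranked by GC content. Cplx3 (52.4%) and Rims1 (47.4%) lie below it, and their lowest libraries were replicates 1 and 2. In that high-GC group, the median gene had replicate 3 at -0.16 and replicate 4 at 0.18 on the log2 scale relative to its own mean. In the low-GC group, the order was the other way, with 0.06 in replicate 3 and -0.08 in replicate 4. Replicate 3 was at -0.52 for Sept5 and -0.44 for Stx1a, further below the mean than the median gene of the high-GC group. The GC groups hold genes with negative and positive fold changes together, so direction of change and GC content are not held apart. Whether GC content bears on the difference between genotypes was not tested, since it needs the control libraries' values.

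**Figure D4:**
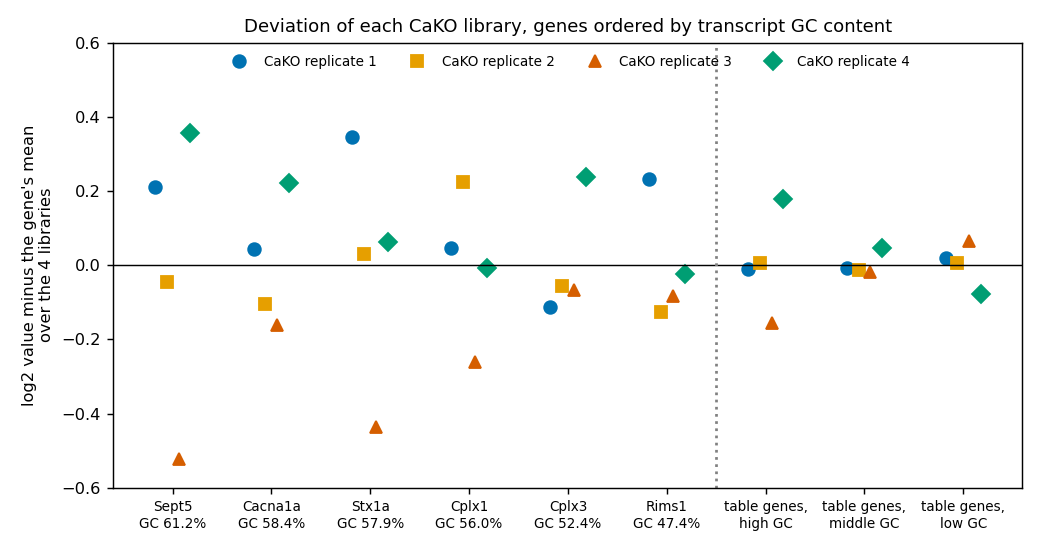
Log2 normalised count minus the gene's own mean over the 4 CaKO libraries (y axis), with the release genes ordered from high to low transcript GC content and, right of the dotted line, the median of listed genes of low, middle and high GC content. Replicate 3 (triangles) is lowest in Sept5, Cacna1a, Stx1a, Cplx1 and the high-GC group, and highest in the low-GC group.

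Per kilobase of exon, the release genes differed in level by over 2 orders of magnitude. In CaKO, Cplx1 had 3664 ± 500 normalised counts per kb (SD, n = 4), Stx1a 1308 ± 280 and Rims1 704.9 ± 82.4. Sept5 followed with 387.5 ± 96.1, then Cacna1a with 219.4 ± 26.4 and Cplx3 with 33.7 ± 3.93. The ranges of neighbours in this order did not overlap, although the lowest library of Sept5 (263.1) was only 1.03 times the highest of Cacna1a (254.4). The place of Sept5 also depends on how its shared exons were counted: over the 638 bases of Sept5 alone, its reads would come to 2378 ± 589 per kb, between Cplx1 and Stx1a in mean. Within a library, complexin-1 mRNA was 91.6 to 131.8 times as abundant per kb as complexin-3 mRNA.

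The promoters of 4 of the 6 genes, Stx1a, Rims1, Cplx1 and Cplx3, were in the RefSeq table (GRCm38.p6), and they are shown as the sequence next to the start sites of 2 called genes, Stx1a and Rims1, and of the 2 complexin genes, which did not pass. Each line gives the 250 bases before the start site, 5′ to 3′ on the gene's strand, with GC boxes in capitals (GGGCGG on either strand, a motif bound by Sp1-family factors). The windows are chr5:135023232-135023481 (plus strand), chr1:22806159-22806408 (minus), chr5:108550028-108550277 (minus) and chr9:57606282-57606531 (minus):
Stx1a: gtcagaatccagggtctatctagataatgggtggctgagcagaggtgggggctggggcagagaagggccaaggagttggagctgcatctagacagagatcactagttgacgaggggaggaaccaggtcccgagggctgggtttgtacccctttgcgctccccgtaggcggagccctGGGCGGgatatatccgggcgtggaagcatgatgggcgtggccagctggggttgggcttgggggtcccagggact
Rims1: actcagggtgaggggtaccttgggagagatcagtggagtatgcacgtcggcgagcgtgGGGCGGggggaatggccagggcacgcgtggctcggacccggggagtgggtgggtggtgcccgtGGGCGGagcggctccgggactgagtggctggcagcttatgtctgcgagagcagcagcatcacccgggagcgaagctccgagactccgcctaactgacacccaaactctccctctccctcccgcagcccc
Cplx1: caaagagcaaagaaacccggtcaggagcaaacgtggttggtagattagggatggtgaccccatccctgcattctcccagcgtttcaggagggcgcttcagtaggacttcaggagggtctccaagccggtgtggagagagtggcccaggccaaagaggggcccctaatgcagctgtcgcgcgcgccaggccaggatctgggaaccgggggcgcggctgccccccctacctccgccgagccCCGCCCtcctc
Cplx3: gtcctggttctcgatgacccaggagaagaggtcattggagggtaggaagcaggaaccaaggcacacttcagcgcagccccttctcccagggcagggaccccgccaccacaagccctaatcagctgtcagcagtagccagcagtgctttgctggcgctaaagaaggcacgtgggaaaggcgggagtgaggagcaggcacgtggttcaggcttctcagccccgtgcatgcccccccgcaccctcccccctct
The GC box was found once for Stx1a, at 2 positions for Rims1, at 1 for Cplx1 and at 0 for Cplx3, against 32.7% of 32851 promoters of this length with at least 1. The cyclic AMP response element TGACGTCA (1.55% of promoters) and the TATA box TATAAA (12.4%), searched on both strands, were found in 0 of the 4. All 4 windows were GC-rich, at 62.0%, 68.0%, 64.8% and 62.8%, against a median of 52.4%, and held 9, 19, 15 and 9 CpG pairs against a median of 6. A match describes these letters only and does not show that a factor binds there.

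The rest of the release machinery was mostly not listed. A list of 86 genes covered vesicle docking, priming and fusion, presynaptic calcium channels and septins. It held 7 that the authors' deposited table lists at an unadjusted p below 0.05. All 7 were lower, at a median of -0.35 for the log2 fold change. That is 8.14% of the list, against 15.8% of all 12938 genes in either direction and 8.68% as lower, and the median over all 1123 lower genes was -0.37. Of the 86, 3 were called (3.49%, against 3.24% of all genes in the adjustment), and all 3 are among the 6 release genes. Since those 6 were picked for being listed, the shares of the full list are not read as a result. The list counts every gene with a known symbol, whether or not it was in the adjustment. Of the 80 genes other than the 6, only Sept4 was listed (1.25%) and 0 were called. Taking out the picked genes lowers these shares, so they are not read as a result either. Sept4 encodes a septin also made by glia and had normalised counts of 917.6, 1226, 949.4 and 1226, with a log2 fold change of -0.31 (adjusted p = 0.214) in the authors' deposited table.

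By role, 1 of 7 SNARE genes was listed (Stx1a), and Snap25 and Vamp2 were not. None of 14 SNARE assembly and disassembly factors was, among them the priming factor genes Unc13a and Unc13b and Nsf, whose product takes SNARE complexes apart. Of the 4 complexin genes, Cplx1 and Cplx3 were listed and Cplx2 and Cplx4 were not. The 13 calcium sensor genes, with the synaptotagmin genes Syt1, Syt2 and Syt7, gave 0 listed, as did the 10 genes of the vesicle GTPase Rab3 and its partners. Rims1 was the only listed gene of 16 for active zone scaffolds, which include its paralogue Rims2 and the giant scaffold genes Bsn and Pclo. Cacna1a was the only 1 of 10 for presynaptic calcium channels, without the N-type gene Cacna1b or any beta or alpha-2-delta subunit gene. Sept4 and Sept5 were the 2 listed of 12 septins. The 89 rows matched by overlap held 0 genes of the release list, and 17 rows of the table have no name. Apart from these, an unlisted release gene had a p no lower than 0.05 or was outside the adjustment, which does not show that its level was the same in both genotypes.

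**Figure D5:**
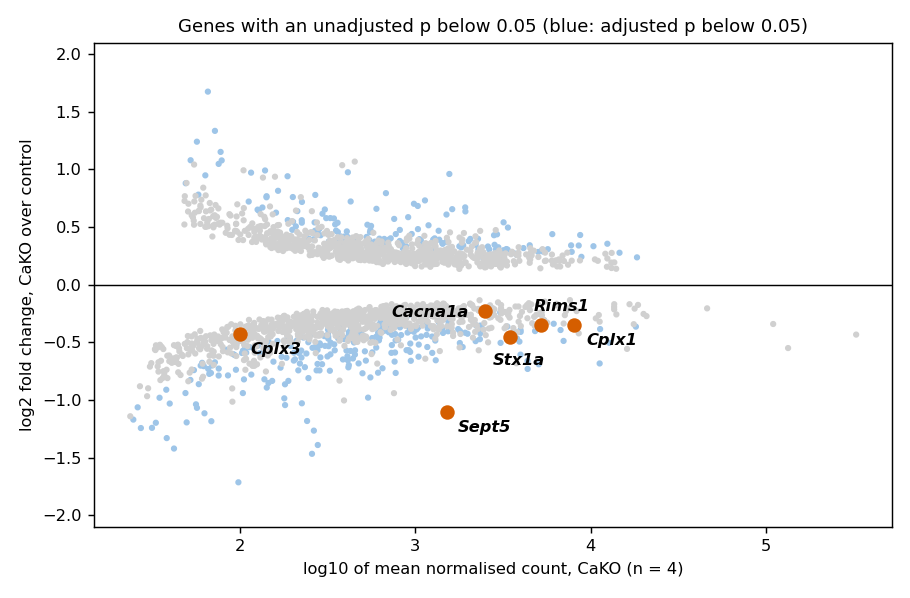
Log2 fold change of CaKO over control (y axis) against log10 of the mean normalised count in CaKO (x axis) for the 2047 genes with an unadjusted p below 0.05, blue where the adjusted p was below 0.05, with the 6 release genes in orange (1 gene lies outside the y axis). All release genes but Sept5 lie in the main band of lower genes at their level, and it lies below the other genes with similar counts.

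Markers of the cells in the tissue moved in several directions beside these genes, and their counts can be read against the 15.8% of all genes listed and the 3.24% called. Of 9 excitatory neuron markers the authors' deposited table lists 3 as lower (Camk2a, Tbr1 and Emx1) and 1 as higher (Sv2b), with 0 calls and a summed level of 54573 to 66178 normalised counts over the CaKO libraries. Of 12 pan-neuronal markers, 2 were lower (Nefm and Rbfox3) and 2 rose in the authors' deposited table, Eno2 (log2 fold change 0.36) and Uchl1 (0.34; summed level 23704 to 28617). Of 14 inhibitory neuron markers, 2 were lower (Npy and Kcnc1), of which Npy fell by 0.48 (summed level 2892 to 3724). Among 11 oligodendrocyte markers 8 were lower, 4 of them called (72.7% listed and 36.4% called, summed level 36676 to 44835). Opalin, matched only by overlap, was lower as well, with a log2 fold change of -0.49 (adjusted p = 0.0530) in the authors' deposited table. Of 10 astrocyte markers 4 were lower, 2 of them called (40.0% listed, summed level 10325 to 12908). Of 8 endothelial markers 2 were lower, Flt1 and Ly6c1, of which Ly6c1 fell with a log2 fold change of -0.39 (adjusted p = 0.00481) in the authors' deposited table (summed level 1707 to 1781). Of 10 microglial markers only Trem2 was listed, as higher at 0.32 and without a call (144.1 to 177.9). None of the listed markers was at 0 in CaKO, and their part in the release gene values was not tested.

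The genes most like each release gene over the 4 CaKO libraries were found as those with the smallest root mean square difference of centred log2 values, among listed genes with a mean of at least 100. For Sept5 they were Mif (0.015) and Arpc3 (0.021), both of which fell in the authors' deposited table (log2 fold changes -0.62 and -0.67). For Stx1a they were Lxn (0.035) and the tubulin gene Tuba1a (0.036). Rims1 was closest to Nifk (0.028) and Gfer (0.037), and Cacna1a to Pigt (0.022) and Higd2a (0.024). Those of Cplx1 were Eps8l1 (0.027) and Itfg2 (0.028), and those of Cplx3 were Lrp5 (0.010) and Washc1 (0.016). Of these 12 genes, the authors' deposited table gives 10 a negative log2 fold change, and Itfg2 (0.36) and Washc1 (0.35) had positive ones that did not pass. The pool of 1810 genes with such a mean held 958 lower genes. Replicate 3 was lowest in 63.0% of those 958, against 37.1% of the pool. A match on library pattern can therefore favour lower genes, and the count of 10 is not read as a result. With 4 libraries, such closeness is a description of these samples only.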

How the data were processed

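Poly-A RNA from the mPFC of 4 CaKO and 4 control mice was sequenced as 100 bp read pairs, per the labels' protocols, and each library is 1 mouse. Reads were aligned to GRCm38 with TopHat2 2.0.12 and counted with HTSeq 0.6.1, per the submitters' processing notes, which also name DESeq2 1.30.1. The deposited library values are a signal, counts that the authors divided by 1 factor per library: 100.0% of the values of each CaKO library were whole multiples of the value of 1 read, within 0.01 of a whole number. The log2 fold changes, p-values and adjusted p-values are the authors', as deposited, and a negative fold change means lower in CaKO: of 18 genes at 0 in every CaKO library, 18 have negative values. Recomputing the adjustment by Benjamini-Hochberg over 12938 genes gave the deposited values to within a relative 0.005, and 325 genes with an adjusted p of 1 were left out.

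The planned count test needs both genotypes and was not run, since no control library's own values were used. The authors' adjusted p (threshold 0.05) decided which genes are said to have risen or fallen, and "listed" means an unadjusted p below 0.05 within the adjustment. Standard errors and 95% intervals were computed from each fold change and p under a normal statistic, and implied control levels from the CaKO mean and fold change. When a CaKO library was left out, the implied control level was kept and the error was widened for 3 libraries by a fixed factor. The spread of the remaining libraries was not estimated again, so calls kept or lost in this way are approximate. A call needed a p no higher than 0.00162, the highest that any called gene had. The arithmetic of these steps was checked on simulated counts, in which fold changes were ratios of means and the error was known. That check does not show that the authors' fold changes and errors behave in this way. Rows were matched to GENCODE M21 (GRCm38), 2266 exactly and 89 by 80% mutual overlap. Symbols refer to exact matches, except Gfer and Opalin, which were matched by overlap. Total depth is unknown, and p-values rest on 4 mice per group.

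The genes, the gene lists and the rules were chosen with earlier results of these data known. The genes named are the 6 release genes, the listed genes of the fixed release machinery list, genes whose exons overlap theirs, and for each the 2 with the closest pattern; the unlisted genes named and the markers come from the same fixed lists. Other thresholds, matching rules, scalings and left-out libraries were tried. Python 3.11.15, numpy 2.4.6, pandas 2.3.3, scipy 1.17.1 and matplotlib 3.10.9 were used.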

Additional observations from a re-analysis of the deposited data

Results flagged for a closer look

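For Cplx3, the gap between replicate 4 (116.7 normalised counts) and the nearest other CaKO library (95.2) was 0.853 of the whole range, above Dixon's 95% limit for 4 samples. It was 1 of 7 genes checked in this way, and chance alone flags about 1 group in 20. Without replicate 4 the log2 fold change of Cplx3 was -0.52, which did not pass either.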

How the results depend on the processing

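The number of release genes called, 3 of 6, depended on the threshold: it was 1 (Sept5) at an adjusted p below 0.01 or with a Bonferroni adjustment. The share of all genes at those stricter settings was not counted. At an unadjusted p below 0.05 it was 6, which was fixed by how the genes were picked, and the full list of 86 gave 7. Of all 12938 genes in the adjustment, 15.8% passed that unadjusted threshold. Leaving out each CaKO replicate in turn gave 1 to 3 calls, for the 6 genes and for the full list alike. The lowest count, 1, came without replicate 3, and the 2 calls without replicate 2 were Sept5 and Cplx1. Including genes matched by overlap left it at 3. Sept5 was called under each of these settings. Every log2 fold change of the 6 genes stayed negative when a library was left out or the CaKO libraries were rescaled to equal totals, with ranges from -0.58 to -0.33 for Stx1a, -0.43 to -0.31 for Rims1, -0.43 to -0.27 for Cplx1, -0.52 to -0.39 for Cplx3 and -0.31 to -0.18 for Cacna1a. The rescaling moved all 6 log2 fold changes down alike, by -0.02 to -0.01 against a fixed control level, which put Cplx1 past the threshold (-0.37) and says nothing about that gene in particular. No paired analysis was possible because no control library's own values were used. The approximation keeps the control level fixed, so control libraries could not be left out. No alternative for the shared exons of Sept5 could be run from gene totals.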
